A study of Monodelphis domestica with 7 samples.

Results

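The uninjured spinal cord of the gray short-tailed opossum, Monodelphis domestica, was compared between postnatal day (P) 29 and P8. The 3 uninjured libraries were chosen by their labels out of 7 in the series: the P29 control of sequencing run 1, the P8 control of the same run, and the P8 control of run 2 as a second young sample. All 21314 genes of the count table were considered, and 13534 passed the filter on low counts. The older uninjured cord is a single library of run 1, since the 7 samples include no P29 control of run 2.

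The study examined gene expression in the cord after complete transection at P7 or P28, with tissue collected 24 h later at P8 or P29. The remaining 4 libraries were injured cords of the P7+24h and P28+24h groups, 1 of each in either run, and they are used here for the spread between libraries and for age differences that involve no uninjured cord. Pups of both sexes were used, and no allele or agent other than the injury and anaesthesia is given for any group. Per the study's methods, libraries were made from cord segments above the lesion level pooled from 2 individuals, so the spread between libraries is that between pooled samples. The study counts more animals than 1 such pool per library would use. How many pools a library here holds is not stated. P8 controls came from other litters, whereas P29 controls were usually littermates of injured pups and had been anaesthetised without injury. Age, litter and anaesthesia therefore cannot be told apart in the uninjured comparison.

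The opossum is born very immature, and the weeks between these ages are the period in which its cord becomes myelinated. Oligodendrocytes wrap axons in a membrane rich in cholesterol and galactolipids, held together by a small set of abundant proteins, among them myelin basic protein. Over the same period of development radial glia and precursors give way to astrocytes and mature neurons, and genes that pattern the embryonic cord and guide growing axons are generally turned down.

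The libraries held between 3332232 and 6256074 counts, and between 15441 and 16066 genes had at least 1 count. The P29 control held 3954359 counts, the P8 control of run 1 held 3727854 and that of run 2 held 5611197. Run mattered: across the tested genes the log2 difference between the P8 controls of run 2 and run 1 had an SD of 0.77, against 1.13 for the difference between the P29 and P8 controls within run 1. Each comparison is therefore given from the fit without a run term and from the fit with the run as a block. Levels are CPM, the counts scaled to a common library size after TMM normalization. Folds are on the log2 scale, ± an SE worked back from the test. This SE is the absolute log2 fold change over the square root of the quasi-likelihood F statistic. A gene is called raised or lowered at an adjusted p under 0.05 with a fold of at least 2. Names were available through the study's own tables of genes and proteins that changed after injury, which list 774 of the tested genes by identifier and give a symbol for most of them. A gene entered the largest of those tables because P28+24h injured libraries differed from this same P29 control, so named genes are not a neutral sample, and the age difference in the injured libraries is given beside the main ones. In every gene list under 80% of the symbols had an identifier (at most 64.0%), so counts cover the members at hand and say nothing of a list as a whole. With the block 28.2% of the 774 were raised and 15.5% lowered, against 12.5% and 8.89% of all genes tested.

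With the run as a block, 1690 genes were raised in the P29 control (12.5% of those tested) and 1203 were lowered (8.89%). Without the block, 232 were raised (1.71%) and 10 were lowered (0.0739%), and all of these were among the calls made with the block. The unblocked counts fell to 0 and 0 when either P8 control was left out, and to 98 to 135 raised and 0 to 2 lowered when any 1 injured library was. With the block the counts changed as well, both up and down. Such fits have fewer residual degrees of freedom than the full blocked fit, so their counts do not show how stable the calls are. The P29 level lay above both P8 libraries for 1626 of the 1690 raised genes and below both for 1152 of the 1203 lowered genes. Over all genes tested the P29 level lay above both for 40.4% and below both for 38.8%. The calls were made from these same libraries. Where a called gene lies therefore follows largely from the call and is not a separate test of it. The raised side reached further from equality: 297 raised genes differed by at least 3 on the log2 scale, against 48 lowered ones. The largest named rises were myelin and oligodendrocyte genes.

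**Figure D1:**
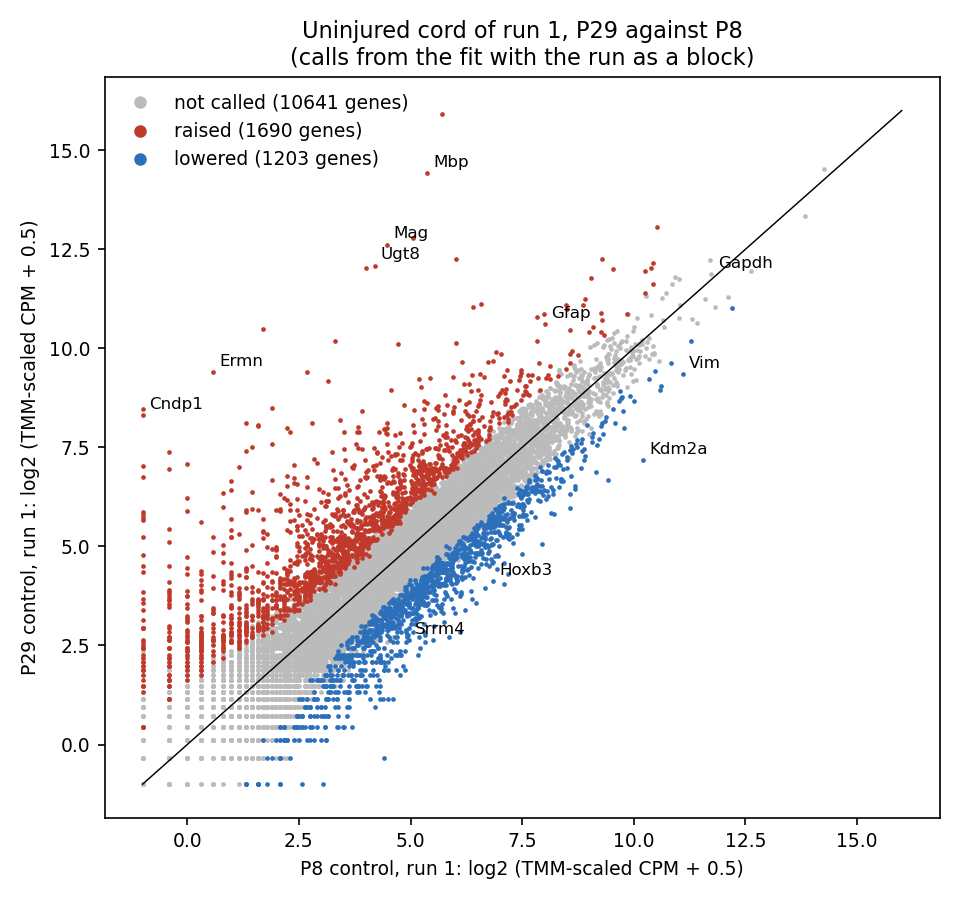
Level of every tested gene in the P8 control (x axis) and the P29 control (y axis) of run 1, as log2 of TMM-scaled CPM plus 0.5, with a line of equality. Red points are the 1690 genes raised and blue points the 1203 genes lowered with the run as a block. Mbp, Mag and Ugt8 stand far above the line at the top, and Vim and Kdm2a lie below it.

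Genes of the myelin sheath had the highest median log2 fold change with the block of the lists with at least 3 identified members. Mbp (ENSMODG00000012291), for myelin basic protein, stood at 22040 CPM in the P29 control, against 40.6 and 150 in the P8 controls of run 1 and run 2. Its 76702 counts were 1.94% of the P29 library (95% Wilson interval 1.93 to 1.95%, counting error only), and it ranked 4828 and 1372 by count in the P8 libraries. Its log2 fold change was 8.83 ± 0.49 with the block (adjusted p = 8.35e-07; 7.85 ± 1.16 and adjusted p = 0.0381 without the block). The P8 level of Mbp differed between the runs, and the P29 library was far above either.

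The myelin-associated glycoprotein gene Mag, which encodes an adhesion protein of the innermost myelin wrap, was at 6287 CPM at P29 and at 21.8 and 36.7 at P8. Ermn, for the cytoskeletal protein ermin of mature oligodendrocytes, had 2356 counts at P29 and 4 and 9 counts at P8, a log2 fold change of 9.20 ± 0.46 with the block. Nfasc, whose neurofascin isoforms stand at the node and its flanking myelin loops, was at 408 CPM against 38.9 and 88.8. Its log2 fold change was 3.72 ± 0.30 with the block, and without the block its adjusted p was 0.263.

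Of 8 myelin structure genes that could be identified among 20 listed, 7 were raised with the block and 6 without, none was lowered, and 7 lay above both P8 libraries. The exception, singled out after its values were seen, was Cntn2, for the axonal adhesion protein contactin 2, at 25.9 CPM at P29 and 15.3 and 56.0 at P8. The median log2 fold change of the 8 was 7.05 with the block, against -0.02 over all genes tested. The share raised over all tested genes listed by the study was 28.2% with the block and 4.26% without. In libraries from whole tissue, more cells of a type and more RNA per cell cannot be told apart.

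Of 16 identified genes of myelin lipid and cholesterol synthesis among 25 listed, 11 were raised with the block and 3 without, and none was lowered. Over all tested genes listed by the study, 28.2% were raised with the block and 4.26% without. Ugt8, which makes the galactolipids of myelin, was at 4342 CPM at P29 against 17.8 and 31.6 at P8, with a log2 fold change of 7.79 ± 0.33 (adjusted p = 1.90e-07) with the block and 7.45 ± 0.62 (adjusted p = 0.0132) without. Fa2h, the fatty acid 2-hydroxylase that acts on the same lipids, had 374 counts at P29 and 0 and 2 counts at P8. Set against the limit of 3 counts in a P8 library, Fa2h was at least 145-fold higher at P29.

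Among enzymes of general sterol and fatty acid synthesis, Hmgcs1, an early enzyme of cholesterol synthesis, was at 2053 CPM against 364 and 532, a log2 fold change of 2.42 ± 0.23 with the block, while its adjusted p without the block was 0.0538. Elovl5, an elongase of polyunsaturated fatty acids, was at 299 CPM against 44.8 and 55.2 and was called in both fits. Both were raised with the block. The median log2 fold change of the 16 was 2.19 with the block, and 14 of them lay above both P8 libraries and 1 below both.

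The oligodendrocyte lineage genes that could be identified were all raised with the block, 17 of 17, of 31 listed. Without the block 2 of the 17 were called. All 17 lay above both P8 libraries, and all 17 were also higher at P28+24h than at P7+24h in both runs of injured cord. Of all tested genes 12.5% were raised with the block, and of those listed by the study 28.2%. The P29 level lay above both P8 libraries for 40.4% of all tested genes, and 40.6% were higher in both runs of injured cord. These 17 had names because their expression or protein changed after injury, which is not independent of the P29 library. The study reports Olig2, Gpr17, Plekhb1, Kif13b and Cndp1 as lower after injury at P28 than in controls. Their selection therefore favoured a high P29 level. Olig2, the transcription factor that specifies the lineage, was at 176 CPM at P29 and at 14.6 and 38.4 at P8 (log2 fold change 3.56 ± 0.20 with the block; adjusted p = 0.16 without). Gpr17, a receptor of precursors about to differentiate, was at 236 CPM against 10.9 and 34.8, and Tcf7l2, a transcription factor of newly differentiating oligodendrocytes, at 126 CPM against 12.6 and 26.9. Olig2, Gpr17 and Tcf7l2 were thus higher at P29 along with genes of the finished sheath.

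Among further genes of the lineage, Cndp1 (ENSMODG00000012366), for the dipeptidase carnosinase 1, had 1111 counts at P29 and 0 in both P8 libraries, and was at least 430-fold higher against the limit of 3 counts. It also had 0 counts in both P7+24h injured libraries and 415 and 1208 counts in the P28+24h injured libraries. Tmem63a, for a mechanically gated ion channel, was at 85.6 CPM at P29 against 1.49 and 2.80 and was called in both fits (log2 fold change 5.69 ± 0.29 with the block). Kif13b, a kinesin motor, was at 58.6 CPM against 0.495 and 5.44, and was not called without the block (adjusted p = 0.141). Secisbp2l was at 644 CPM against 82.4 and 137, and Plekhb1 at 132 CPM against 12.9 and 23.2. Both were raised with the block and not called without it.

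**Figure D2:**
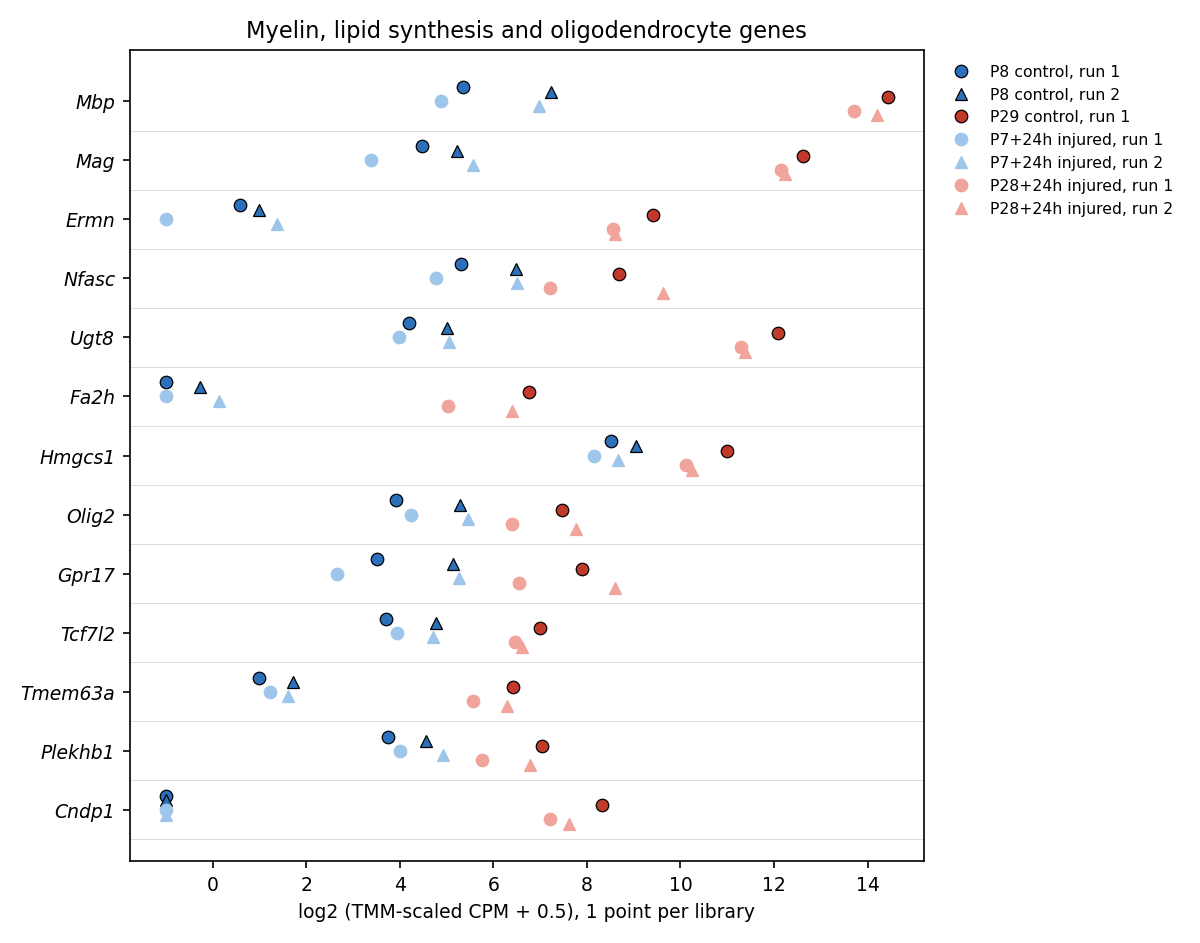
Level of 13 myelin, lipid synthesis and oligodendrocyte genes in each of the 7 libraries, as log2 of TMM-scaled CPM plus 0.5, with 1 point per library (circles run 1, triangles run 2, dark blue P8 control, red P29 control, pale blue P7+24h injured, pale red P28+24h injured). In all 13 the red point lies to the right of both dark blue points, and Cndp1 sits at the left edge in all 4 young libraries because it had 0 counts in them.

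A small set of genes was close to absent at P8. In all, 16 genes reached at least 50 counts at P29 and stayed at or under 3 in both young libraries, and 13 of them had at least 50 counts in each P28+24h injured library as well. The 3 with a name were Cndp1, Fa2h and Ghsr, the last of which encodes the ghrelin receptor and had 58 counts at P29 against 1 and 2. Ghsr was at least 22.4-fold higher at P29. Among genes without a name, ENSMODG00000006510 had 449 counts at P29 and 0 in both P8 libraries, and ENSMODG00000014713 had 174 and 0. In the reverse direction, 2 genes had at most 3 counts at P29 and at least 50 in each P8 control. One of them, ENSMODG00000023825, had 1 count at P29 and 84 and 128 at P8. With a limit of 20 counts in each P8 control, 23 genes had at most 3 counts at P29. The upper limit applied to both P8 controls here, but to the single P29 library for the 16 genes. The numbers of genes in either direction are therefore not directly comparable.

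Genes of the perineuronal and glial matrix had 4 identified members of 20 listed, of which 3 were raised with the block and 1 without. Among all tested genes listed by the study, 28.2% were raised with the block and 4.26% without. Bcan, for the proteoglycan brevican, was at 1416 CPM at P29 against 381 and 725 at P8 (log2 fold change 1.89 ± 0.21, adjusted p = 7.82e-05 with the block; adjusted p = 0.302 without). Tnr, for tenascin-R, an oligodendrocyte and neuronal matrix protein that binds brevican, was at 38.8 CPM against 6.93 and 31.8, so the P8 control of run 2 lay close to the P29 level. Chst7, a sulfotransferase that modifies chondroitin chains, was at 102 CPM against 3.22 and 6.10 and was called in both fits. Neurocan, Ncan, a proteoglycan of the young brain matrix, was at 1739 CPM against 1077 and 2176 and was not called.

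Astrocyte genes were represented by 3 members. Gfap, the intermediate filament of astrocytes, was at 1552 CPM at P29 against 256 and 672 (log2 fold change 2.46 ± 0.26, adjusted p = 5.50e-05 with the block; adjusted p = 0.279 without). Aldoc and Mlc1 were not called: Mlc1 was at 58.9 CPM at P29, between 41.3 and 87.7 at P8. The potassium channel Kcnj10, which takes up potassium in astrocytes and oligodendrocytes, was at 44.2 CPM against 8.66 and 26.9 and was raised with the block (log2 fold change 2.68 ± 0.29).

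Ion channels and chloride transporters moved in both directions. Of 8 identified members 5 were raised and 2 lowered with the block, and 1 was raised without it. Over all tested genes listed by the study 28.2% were raised and 15.5% lowered with the block. Slc12a2, the chloride importer NKCC1, was at 369 CPM against 61.9 and 91.0 (log2 fold change 2.87 ± 0.29 with the block). Kcnj12, an inward rectifier, had 67 counts against 2 and 6. The lowered members were calcium channel subunits. Cacnb3, an accessory beta subunit, was at 19.0 CPM at P29 against 79.0 and 55.9, and Cacna1g, the pore of a low-threshold T-type channel, at 55.8 CPM against 182 and 134. Their log2 fold changes with the block were -2.10 ± 0.25 and -1.62 ± 0.24, and neither was called without it.

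Of 6 identified synaptic genes, 3 were raised with the block and none without. The share raised with the block was 28.2% over all tested genes listed by the study. Syt2, a calcium sensor of fast synapses, was at 199 CPM at P29, between 90.6 and 224 at P8, and was raised with the block by 1.21 ± 0.20 on the log2 scale. Calb2, for the calcium-binding protein calretinin, was at 48.3 CPM against 20.1 and 23.4, and Dnm3, a dynamin of the synapse, at 56.9 CPM against 18.1 and 55.0. Slc18a3, the vesicular acetylcholine transporter of cholinergic neurons such as motoneurons, was at 103 CPM against 77.0 and 116, inside the range of the P8 libraries.

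Microglia and myeloid genes were few in counts at both ages. The complement C1q chains, which microglia supply in the central nervous system, had the most counts of the microglia and myeloid list at P29: C1qa had 144 counts at P29 against 37 and 69, C1qb 126 against 29 and 41, and C1qc 95 against 23 and 42. Scaled for depth they were at 41.4, 36.2 and 27.3 CPM at P29 and at 5.69 to 11.4 CPM at P8. Each was raised with the block, by 4.12-fold to 4.26-fold (log2 fold change 2.04 to 2.09), with adjusted p of 0.0674 to 0.0964 without it. Trem2, a lipid-sensing receptor of microglia, had 40 counts at P29 and 0 and 3 at P8, at least 15.5-fold higher, and Spi1, the transcription factor PU.1 of myeloid cells, had 31 against 10 and 13. The receptor Csf1r, on which microglia depend, had 7 counts against 3 and 7 and was not called.

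Of 16 identified microglia and myeloid genes 6 were raised with the block, 9 in a likelihood ratio test with the block and none in the quasi-likelihood fit without it. None was lowered in any of these. Over all tested genes the likelihood ratio test called 13.6% raised and 10.3% lowered in uninjured cords, and 14.8% and 9.39% in injured cords. The summed level of the 16 was 161 CPM at P29 against 53.0 and 42.8 at P8. The median log2 fold change was 1.90 with the block, or 1.73 with 3 members set at their bound and 2 with no more than 3 counts left out. The sum was higher in injured cords at either age, at 566 and 416 CPM at P28+24h and 149 and 180 CPM at P7+24h. Cd74, the invariant chain of antigen-presenting cells, was at 77.9 CPM at P29 against 11.1 and 3.46 (log2 fold change 3.20 ± 0.32 with the block; adjusted p = 0.0649 without). Over all tested genes 12.5% were raised with the block, and 28.2% were raised of those listed by the study. Of 9 identified antigen presentation and interferon genes 4 were raised with the block and none without, and of 9 tested complement and acute phase genes 3 were raised with the block and none without. The latter were C3, the central complement protein, at 10.6 CPM against 1.49 and 1.98, with Lbp and Cebpd. Genes of these immune lists had names through tables of change after injury, and the largest of those tables rests on the same P29 control.

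Among vessel and matrix genes some were raised, 1 was lowered and the rest were not called. Kdr, the main receptor for vascular endothelial growth factor, was at 137 CPM at P29 against 36.4 and 35.6 at P8 and was called in both fits (log2 fold change 2.02 ± 0.21 with the block, 1.93 ± 0.31 without). Vwf, made by endothelial cells, was at 26.7 CPM against 13.4 and 8.40. The basement membrane genes Hspg2, for perlecan, and Nid2, for nidogen 2, were at 98.3 and 31.0 CPM at P29. At P8 Hspg2 was at 22.0 and 58.0 CPM and Nid2 at 2.97 and 10.9. Fibrillin 3, Fbn3, a microfibril protein of embryonic tissue, went the other way, at 9.48 CPM against 46.5 and 31.8 (log2 fold change -2.15 ± 0.31 with the block; adjusted p = 0.0815 without). With the block Kdr and Vwf were raised and 2 others not called, of 4 vessel genes tested. Of 7 basement membrane and connective tissue genes tested, Hspg2 and Nid2 were raised, Fbn3 was lowered and 4 were not called. For comparison, 28.2% of all tested genes listed by the study were raised with the block and 15.5% lowered. The median log2 fold change of the 7 matrix genes was 0.27 with the block. Fbn1, at -0.82, and Lox, at -0.02, were among the matrix genes not called.

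Genes lower at P29 included some patterning factors and precursor genes. Of 70 patterning genes listed 3 were identified, and of 25 precursor genes listed 3 were. In each list 2 of the 3 were lowered with the block and none without. Among all tested genes listed by the study 15.5% were lowered with the block. Hoxb3 (ENSMODG00000012344), a homeobox factor of the hindbrain and rostral cord, was at 16.9 CPM at P29 against 115 and 72.0 at P8, below both. Its log2 fold change was -2.61 ± 0.34 with the block (adjusted p = 0.000304) and -2.46 ± 0.51 without (adjusted p = 0.0804). Hoxd4 was at 10.9 CPM against 40.9 and 16.0 and was lowered with the block. Between injured cords the log2 difference of Hoxd4 with age was -0.72 in run 1 and 0.48 in run 2. Hoxb1 had 1, 10 and 3 counts and was not called. The study reports Hoxb1, Hoxb3 and Hoxd4 as higher after injury at P28 than in controls of that age. Their selection therefore favoured a low level in this P29 library, and its part was not tested. Vim (ENSMODG00000009818), the intermediate filament vimentin of radial glia and immature astrocytes, was at 647 CPM against 2196 and 1939 (log2 fold change -1.82 ± 0.25, adjusted p = 0.000427 with the block; adjusted p = 0.102 without).

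Of the members of these lists, Hoxb3 and Vim were also lowered with age between injured cords. Hoxb3 was at 31.4 and 39.7 CPM at P28+24h and 113 and 74.3 CPM at P7+24h. Vim was at 1459 and 1022 CPM at P28+24h and 3089 and 2715 CPM at P7+24h. The other precursor list members split: Igf2bp2, an RNA-binding protein of fetal tissue, was at 12.1 CPM at P29 against 45.3 and 14.3 and was lowered with the block, whereas Sall1, a zinc finger factor, was at 85.6 CPM against 38.4 and 51.7 and was raised with it. Neither of these was called between injured cords.

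Of 7 identified axon guidance genes, 4 were lowered and 1 raised with the block, and none was called without it. Among all tested genes listed by the study, 15.5% were lowered and 28.2% raised with the block. Robo3, a receptor of commissural axons, was at 4.02 CPM at P29 against 19.3 and 8.57. Slit3, a ligand of the Robo receptors, was at 17.2 CPM against 65.3 in run 1 and 15.5 in run 2, so the P29 level was not below the second young library. The same held for the ephrin Efna4, at 2.59 CPM against 9.41 and 1.65. Epha7, an ephrin receptor, was at 22.7 CPM against 58.4 and 47.0, below both. Sema5a, a semaphorin, was the raised member, at 16.7 CPM between 7.43 and 31.8 at P8, and its log2 fold change was 1.40 ± 0.36 with the block and -0.25 ± 1.48 without. Robo3, Slit3 and Efna4 had names through the table that rests on this P29 library. In the injured cords none of the 7 members was raised and 1, Sema4f, was lowered with age.

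The Hedgehog receptor gene Ptch1 was at 60.1 CPM at P29 against 60.2 and 89.5 and was not called. The Notch target Hey1 was raised with the block, at 126 CPM against 46.0 and 59.6, as was Notch3, at 54.0 CPM between 26.0 and 64.8. None of these 3 was called without the block. With the block 15.5% of all tested genes listed by the study were lowered. The motile cilium list had 3 of 5 identified members lowered with the block and none without. Among them was Dnajb13, at 8.33 CPM against 26.0 in run 1 and 3.79 in run 2. The P29 level lay below both P8 libraries for 1 of these 5.

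**Figure D3:**
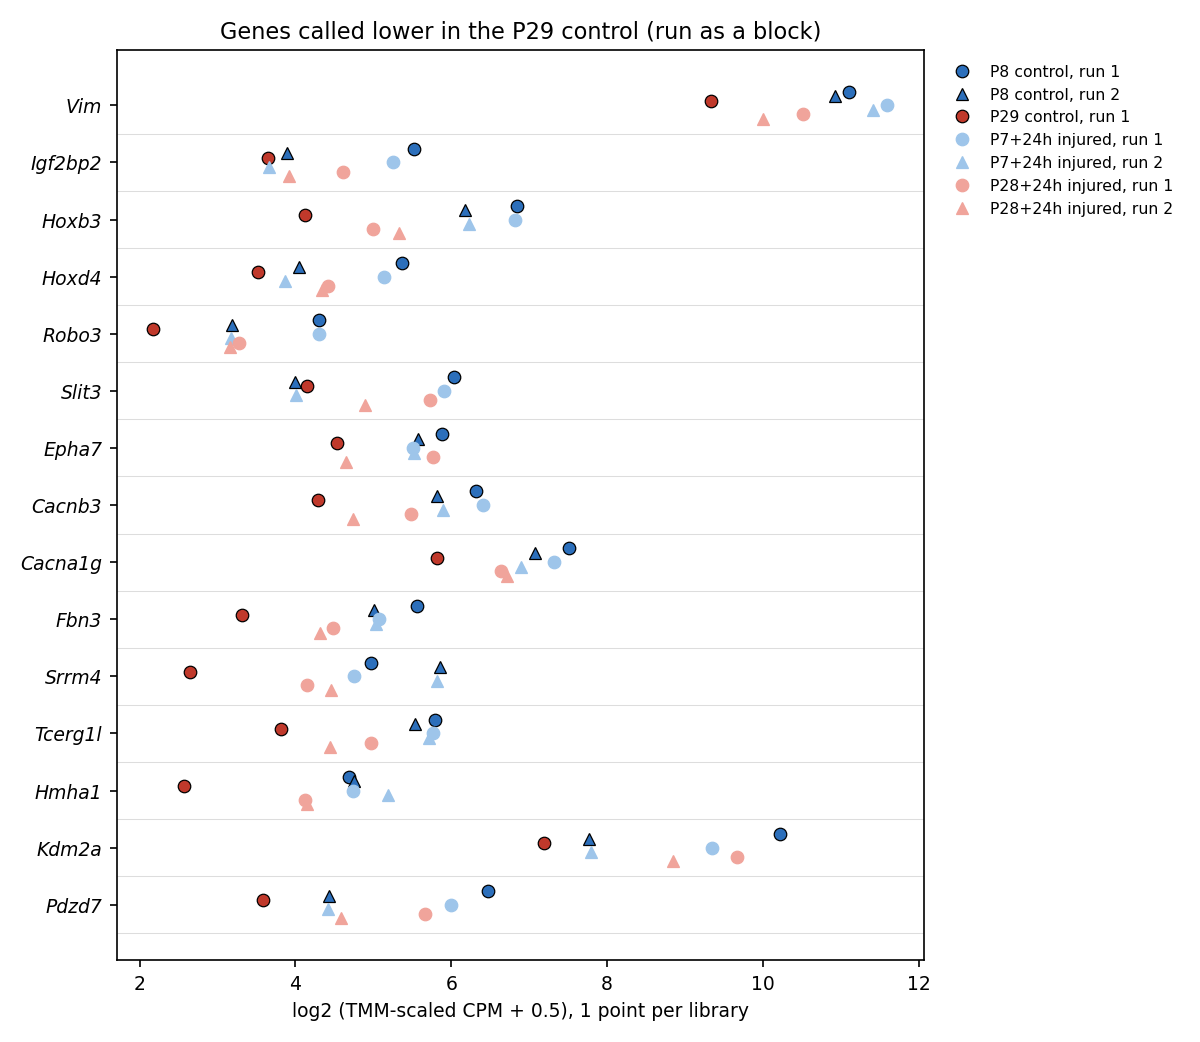
Level of 15 genes called lower in the P29 control with the run as a block, in each of the 7 libraries, as log2 of TMM-scaled CPM plus 0.5 (symbols as for the myelin genes). For Vim, Hoxb3, Cacnb3 and Fbn3 the P29 control lies left of both P8 controls, whereas for Slit3 and Igf2bp2 it lies at about the level of the P8 control of run 2.

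None of the 4 tested genes of immature neurons was called with or without the block. Dpysl5, a protein of growing neurites, was at 60.9 CPM at P29 against 111 and 278, with a log2 fold change of -0.75 ± 0.22 with the block. Dpysl2 was at 742 CPM between 612 and 1495, and Astn1, an adhesion protein of migrating neurons, at 41.1 CPM against 48.5 and 268. Between injured cords Dpysl5 and Astn1 were both lowered with age, by 1.51 and 1.21 on the log2 scale with the block. Outside the lists, Tubb, a beta tubulin, was at 1160 CPM at P29 against 2494 and 3422 and was lowered with the block in uninjured and injured cords alike. Tubb was picked after its values were seen, as a lowered gene that was also called between injured cords.

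Of the glycolysis genes, 2 of 8 identified members were raised with the block, against 28.2% of all tested genes listed by the study. Gapdh was at 3722 CPM at P29 against 3414 and 2234 (log2 fold change 0.0048 ± 0.28 with the block), and the respiratory chain gene Uqcrc2 at 269 CPM against 214 and 188. The raised members were Pgk1, at 576 CPM against 203 and 182, and Pfkfb2, at 20.4 CPM between 6.44 and 26.5.

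Markers of other tissues in the segment were summed. The 10 erythroid genes tested summed to 10790 CPM at P29, 15230 CPM in the P8 control of run 1 and 2474 CPM in that of run 2, and the P29 sum lay between those of the P8 libraries. None of them lay outside both P8 libraries, and Gata1 and Tfr2 were lowered with the block. Skeletal muscle genes summed to 27.9 CPM at P29 and 25.8 and 15.7 CPM at P8, with Trdn at 0 counts and Myl1 at 1 count in the P29 control. Neb was the 1 muscle gene of 11 called, with 24 counts against 7 and 10. The part of blood and muscle in the age differences was not tested.

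**Figure D4:**
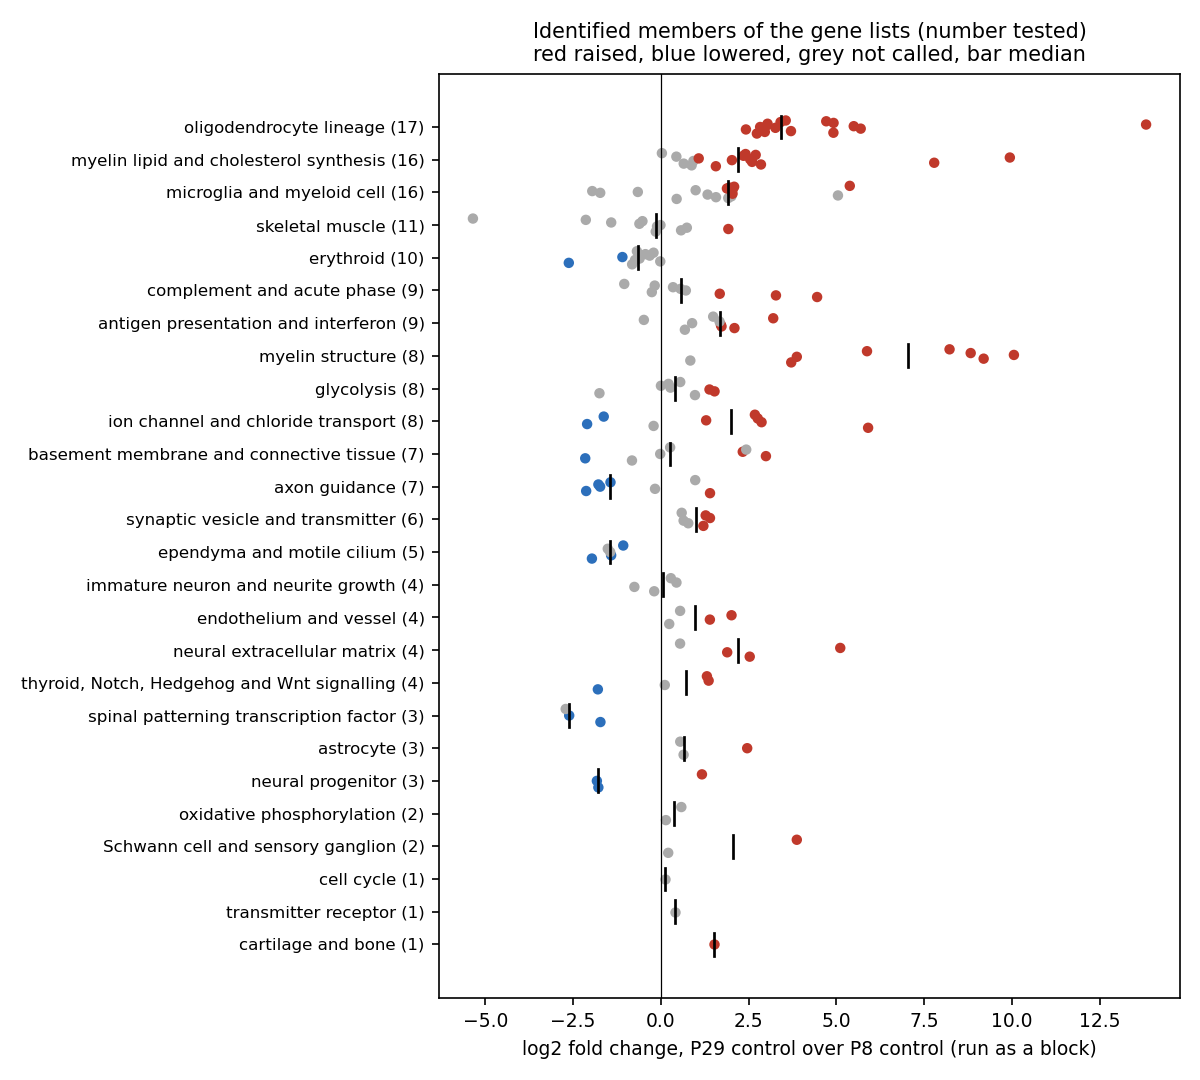
Log2 fold change of each identified and tested list member, P29 control over P8 control with the run as a block, 1 row per list with the number tested. Oligodendrocyte and myelin rows lie to the right of 0, patterning and axon guidance rows mostly to the left, and vertical bars mark the medians.

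By the size of their fold, the 15 named genes raised most included Cndp1, Fa2h, Ermn, Mbp, Mag, Ugt8, Ghsr, Nmur2, Kcnj12, Tmem63a, Kif13b, Chst7 and Wipf1. Of the 15, 11 were called without the block, and all 15 were raised between injured cords with the block. Nmur2, a receptor for the peptide neuromedin U, had 78 counts at P29 against 1 and 8 at P8. Wipf1, an actin regulator best known in blood cells, had 137 counts against 7 and 24.

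The 15 named genes lowered most were Pdzd7, Kdm2a, Itga2b, Hoxb3, Srrm4, Kiaa0895l, Tube1, Col24a1, Pxdn, Fbn3, Hmha1, Robo3, Cacnb3, Tcerg1l and Speg. None was called without the block, 8 were lower with age in both runs of injured cord, and 4 were called lowered there with the block: Hoxb3, Srrm4, Cacnb3 and Tcerg1l. Srrm4, a splicing factor for neuronal microexons, was at 5.75 CPM at P29 against 30.7 and 57.5 at P8 (log2 fold change -2.47 ± 0.36 with the block). Kdm2a, a histone demethylase, was at 145 CPM against 1186 and 218, but between injured cords it was at 814 and 458 CPM at P28+24h and 652 and 221 CPM at P7+24h. Its P29 level was below both P8 libraries, whereas in neither run was the older injured cord lower.

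The age difference between injured cords used 4 libraries that the uninjured comparison did not. With the block 1873 genes were raised at P28+24h over P7+24h (13.8%) and 1191 lowered (8.80%). Without the block the counts were 306 (2.26%) and 74 (0.547%). The run term of the blocked fit is estimated from all 7 libraries. Of the 1690 genes raised in uninjured cords, 1215 were raised there (71.9% of these and 64.9% of the 1873), none was lowered, and 1631 were higher in both runs of injured cord. Of the 1203 lowered, 663 were lowered there (55.1% of these and 55.7% of the 1191), 6 were raised, and 1054 were lower in both runs. Over all genes tested, 40.6% were higher and 38.7% lower in both runs. Across the 13534 genes, the P29 minus P8 difference in uninjured run 1 and the age difference in injured run 2, which share no library, had Pearson's r of 0.79. This correlation is across genes, which are not independent replicates.

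**Figure D5:**
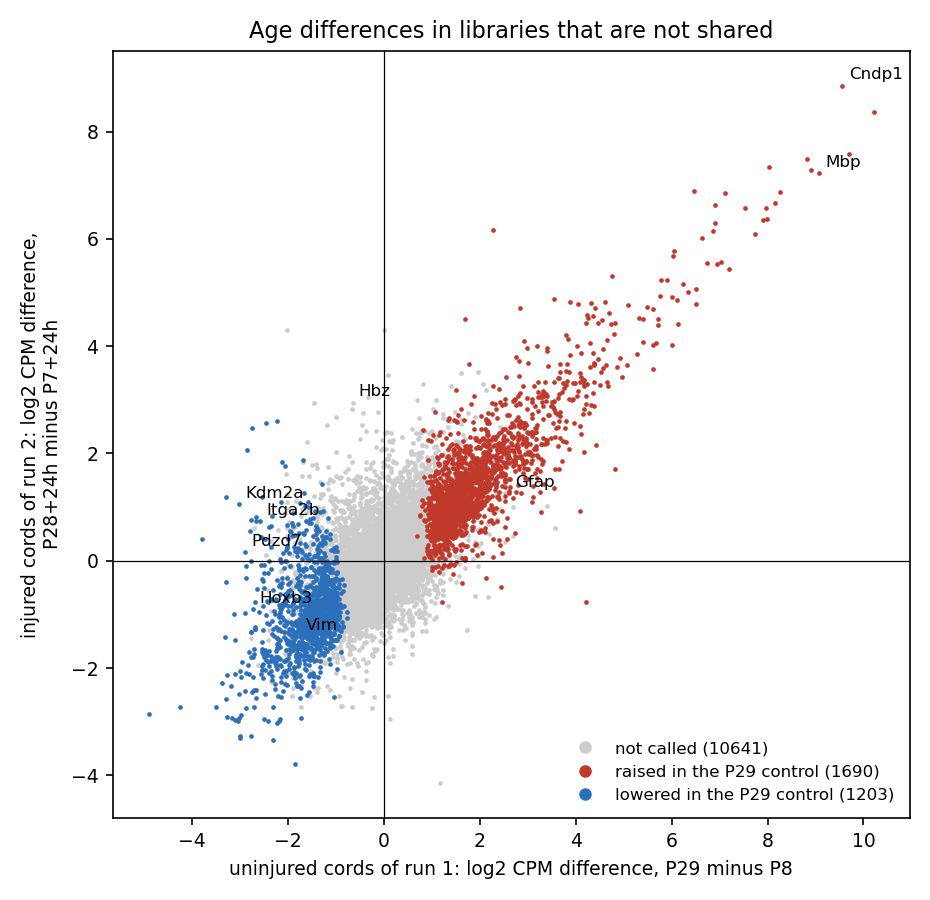
Log2 CPM difference between P29 and P8 controls of run 1 (x axis) and between P28+24h and P7+24h injured cords of run 2 (y axis), 1 point per tested gene, red and blue for the genes raised and lowered in the P29 control with the block. Raised genes rise along the diagonal up to Mbp and Cndp1, and lowered genes lie mostly at the lower left, with Kdm2a, Pdzd7 and Itga2b among those above 0 on the y axis.

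The genes listed in the study's tables, with or without a symbol, can be set beside the rest. Among raised genes, 85.3% of the 218 listed and 98.2% of the 1472 others were higher with age in both runs of injured cord. Among lowered genes, the shares were 21.7% of 120 and 94.9% of 1083. Of the 120 listed lowered genes, 7 were called lowered between injured cords, namely Hoxb3, Vim, Srrm4, Cacnb3, Tcerg1l, Tubb and Igfbp5, the last of them outside the naming rule. The P29 library served both for these calls and for the selection of genes into the largest table, and the part of that selection in these shares was not tested. Of the 774 listed genes tested, 28.2% were raised and 15.5% lowered with the block.

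The age difference in injured cords was tested against that in uninjured cords. Without the block no gene was called by edgeR's quasi-likelihood test or by DESeq2. Of the 13534 genes, 59 had an unadjusted p under 0.05 in edgeR and 22 in DESeq2. Both lie far below the share of 0.05 that arises where no age change differs. The lack of calls without the block thus does not show that the age changes were alike. With the block the quasi-likelihood test called 5 genes (0.0369%), each with a higher age difference in injured cords. None of the myelin, lipid or oligodendrocyte genes named above was among them. The difference for Mbp was -0.78 ± 0.52 on the log2 scale with the block (adjusted p = 0.708). A likelihood ratio test with the block called 200 genes (1.48%).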

How the data were processed

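RNA from pooled rostral cord was sequenced as single-end reads of 100 bp. Per the study's methods, the authors trimmed the reads, aligned them with Bowtie2 and counted them per nuclear gene of Ensembl release 69 with HTSeq. Whether counting used strand is not given in the sources used here. The deposited values are whole-number read counts per gene and library, not normalised. From these counts, genes were kept by filterByExpr (minimum count of 10), scaled by TMM and tested in edgeR 4.0.16 (R 4.3.3) with the quasi-likelihood test over all 7 libraries in 4 groups, with Benjamini-Hochberg adjustment over all genes tested. The residual degrees of freedom were 3, or 2 with the block. CPM values use TMM-scaled library sizes. The log2 differences between single libraries use a prior count of 2.

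Because the labels give the run as the replicate number, and runs held separately collected samples, the numbers pair the samples: the run 2 minus run 1 difference correlated across genes at 0.802, 0.699 and 0.737 between the 3 groups present in both runs. The common dispersion was 0.141 without and 0.0181 with the block. Without the block, p-values measure the spread between libraries of the same group. With it, they measure how far the run difference varies between the 3 groups present in both runs. The single P29 library adds nothing to either spread.

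Members and gene lists were chosen with earlier results of these data known. Named genes were the first 3 measured members of each list, up to 4 more per list with the smallest blocked p, and the 15 raised and 15 lowered named genes with the largest blocked fold, at least 50 counts in some control library and P29 on the same side of each P8 library. Of 782 identifiers in the study's tables, 774 were tested. The supplied RefSeq table held no matching identifiers, so no position or sequence is given. Some genes that the rule names are not reported here. The list of mature axon genes had no identified member. Alternatives were DESeq2 1.42.0, the exact test, other scaling, filters, thinning and leaving out libraries. Scripts were tested on simulated counts. Wilson intervals and the limit of 3 counts cover counting error only.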

Additional observations from a re-analysis of the deposited data

Results flagged for a closer look

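With the run as a block, the age difference differed between injured and uninjured cords for 5 of 13534 genes, each higher in the injured contrast. None of the 5 was called without the block, where the adjusted p of each was 1.00. In Ogt, which adds a sugar to nuclear proteins, the log2 difference between the age changes was 2.21 ± 0.30 (adjusted p = 0.0369), with 175 counts at P29 and 784 and 474 at P8. In Recql5, a DNA helicase, it was 2.26 ± 0.30. Its level was 26.7 CPM at P29, between 75.0 CPM in the P8 control of run 1 and 17.3 CPM in that of run 2. In Hbz, an embryonic globin, it was 3.50 ± 0.47, with 83 counts at P29, 153 and 14 at P8, 333 and 117 at P28+24h and 59 and 14 at P7+24h. Hbz moved with the erythroid sum, which was 23540 and 5469 CPM at P28+24h and 9874 and 2437 CPM at P7+24h, and the part of blood in it was not tested. The genes ENSMODG00000027360 and ENSMODG00000028113, which have no name here, differed by 3.73 ± 0.44 and 2.90 ± 0.33. All 5 were picked by this test and fall outside or beside the naming rule.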

How the results depend on the processing

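The main limits are the single P29 library, which cannot be left out, and the size of the run difference. Counts are given as raised and lowered. For P29 against P8 controls, 232 and 10 genes were called without the block. The numbers were 1690 and 1203 with the replicate block, 1846 and 1396 in its likelihood ratio test, 1309 and 946 in DESeq2 with the block, and 1645 and 1203 with the block on thinned counts. Without the block they were 597 and 108 by the exact test with all 7 libraries, 739 and 326 by the exact test with the compared groups alone, 654 and 307 by the quasi-likelihood test with these, and 580 and 275 by DESeq2. They were 129 raised by library size only, which moved the median of all genes from -0.03 to -0.33 on the log2 scale, and 22 lowered with no low-count filter. RLE factors, the filter of 1 CPM, thinning and adjusted p alone left both counts within 1.5 times. Leaving out 1 library gave 0 to 135 raised and 0 to 2 lowered without the block, and 1387 to 1914 raised and 877 to 1540 lowered with it. Without either P8 control no gene was called in the unblocked quasi-likelihood fit, in which a lone P8 library is assumed to vary like the other groups, with 1752 (without run 1) and 1375 (without run 2) genes at an unadjusted p under 0.05. The blocked counts without them were 1387 and 877 (run 1) and 1664 and 1270 (run 2).

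For the age difference in injured cords, the 306 and 74 calls became 1873 and 1191 with the block, 2003 and 1271 in its likelihood ratio test, 1485 and 1075 in DESeq2 with the block, and 1825 and 1189 with the block on thinned counts. They were 713 and 238 by the exact test with all 7 libraries, 621 and 169 with the compared groups alone, 73 and 0 by the quasi-likelihood test with these (2192 at an unadjusted p under 0.05), 690 and 329 by DESeq2, and 169 raised by library size only. Leaving out 1 library gave 0 to 87 and 0 to 1 without the block and 1500 to 1911 and 1006 to 1740 with it. Calls of a difference between the age changes numbered 0 and 0 without the block, 5 and 0 with it, 162 and 38 in its likelihood ratio test, 31 and 1 in DESeq2 with the block, 12 and 1 with the block on thinned counts, and 18 to 449 and 1 to 384 with the block when 1 library was left out. The cause of these changes was not tested.

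Among 140 named genes the direction turned for the following. With the block and in its likelihood ratio test respectively, the log2 fold change was -0.82 and -0.81 for Ahsp, 0.21 and 0.21 for Ret, 0.78 and 0.79 for Syn3, -0.14 and -0.04 for Myh4, 1.40 and 1.40 for Sema5a, 0.11 and 0.11 for Ptch1, -0.01 and -0.01 for Alas2, 0.65 and 0.65 for Mlc1, -0.02 and -0.01 for Lox, -0.44 and -0.41 for Hbz, -0.21 and -0.20 for Hba, 0.45 and 0.45 for Dpysl2, 0.40 and 0.43 for Gabrb1 and 0.29 and 0.29 for Ncam2. Acta1 was at 0.0095 in the likelihood ratio test. By library size only, Ahsp was at -0.26, Slc18a3 at -0.21, Lox at -0.17, Notch3 at -0.05, Hbz at -0.04, S1pr1 at -0.21, Sema7a at -0.11, Ncan at -0.20, Slc16a1 at -0.00081 and Pfkfb2 at -0.0035.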
